A study of Mus musculus with 18 samples.

Results

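Of the 18 libraries of the series 6 are described here, 3 of AE9a cells given RE and 3 of AE9a cells given DMSO. They were chosen by genotype and treatment, and every gene of the count table was considered. The material was total RNA of mouse bone marrow cells positive for cKit, the surface receptor carried by stem and early progenitor cells and by mast cells. DMSO is the solvent control. Both groups carry AE9a, a shortened splice form of the fusion of AML1 (RUNX1) with ETO (RUNX1T1) that is used as a mouse model of acute myeloid leukaemia. The other 12 libraries were AE9a cells under a further compound, C16, and wild-type (WT) cells under RE, C16 and DMSO, with 3 libraries in each group. The study describes pharmacological inhibition of WDR5 and of MLL1, and the labels give neither which of RE and C16 acts on which protein nor a dose or a time. How AE9a was brought into the cells, which promoter drives it and whether same-group libraries came from separate animals is not given either, and the spread that the p-values measure may be technical.

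WDR5 is a scaffold that holds MLL-family methyltransferases together with RBBP5, ASH2L and DPY30, and the assembled complex places methyl marks on histone H3 lysine 4 at active genes. Menin, encoded by Men1, is a further partner of MLL1, and the HOXA genes and MEIS1 are their best known targets in blood progenitors and leukaemia. HOXA9 keeps progenitors dividing and is switched off as myeloid cells mature.

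The 6 libraries held 18211787 to 27207748 fragments each, and 25170 of 41079 listed genes had at least 1 fragment in them. Levels are given in CPM, fragments scaled to library size by TMM, and changes as log2 of RE over DMSO with the standard error of the fit. Genes are said to have risen or fallen at an adjusted p under 0.05 by the edgeR quasi-likelihood F test, Benjamini-Hochberg adjusted over all 14704 tested genes, fitted on the 9 AE9a libraries. By this rule 12.2% of all tested genes rose and 16.8% fell, the shares beside which the counts of each list stand. Some libraries stood apart. AE9a C16 replicate 3 lay 0.645 and 0.683 log2 units (root mean square over genes) from the other C16 libraries, which lay 0.312 from each other. The WT libraries numbered 2 lay far from their own groups under every treatment. Runx1t1, whose fragments may include those of AE9a, stood at 34.5, 43.3 and 44.3 CPM under RE, against 33.7, 46.4 and 38 CPM under DMSO (log2 change 0.047 ± 0.35, adjusted p = 0.939), and the groups overlapped. In Nanog, the pluripotency factor of the study's title, 0 fragments were counted, where 3 fragments correspond to 0.11 to 0.165 CPM.

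Genes of the HOXA cluster fell under RE. Of the 11 HOXA genes listed, 7 had enough fragments to be tested. Of these, 5 fell and 0 rose, against 16.8% of all tested genes that fell and 12.2% that rose. All 7 tested members were lower in every RE library than in every DMSO library, as were 26.0% of all tested genes. Their median log2 change was -2.20, against -0.0081 over all tested genes. In bulk RNA, fewer cells expressing a gene and less RNA per cell cannot be told apart, here and in all that follows. The RefSeq windows of 250 bases before the start are shown for Hoxa7 and Hoxa9, because the members moved together and these have the most fragments. Capitals mark CG, the dinucleotide that MLL1 is known to bind when it is unmethylated. Both lie on the minus strand of GRCm38.p6, the Hoxa7 window at chr6:52218574-52218823 with 7 CG and the Hoxa9 window at chr6:52227371-52227620 with 3 CG. The 10 windows of the 9 HOXA genes that matched the RefSeq table held a median of 15.5 CG, against 14 in windows of tested genes and 6 in all 32851 windows.
Hoxa7: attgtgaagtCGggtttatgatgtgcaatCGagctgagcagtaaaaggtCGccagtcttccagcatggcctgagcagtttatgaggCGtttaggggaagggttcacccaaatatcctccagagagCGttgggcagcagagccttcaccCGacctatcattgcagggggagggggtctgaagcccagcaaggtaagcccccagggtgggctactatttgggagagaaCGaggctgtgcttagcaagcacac
Hoxa9: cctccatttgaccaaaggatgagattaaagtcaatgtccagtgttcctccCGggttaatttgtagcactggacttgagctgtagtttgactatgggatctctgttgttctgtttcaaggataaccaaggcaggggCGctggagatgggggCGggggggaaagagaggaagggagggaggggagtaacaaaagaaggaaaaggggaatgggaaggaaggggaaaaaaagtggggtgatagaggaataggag

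Hoxa7 (chr6:52191471-52198757, GRCm39, minus strand), a homeobox factor of the central cluster, stood at 0.824, 0.346 and 0.485 CPM under RE, against 6.33, 5.21 and 5.1 CPM under DMSO. Its log2 change was -3.35 ± 0.26, the largest fall among called genes whose libraries did not overlap and whose higher group averaged at least 5 CPM (adjusted p = 0.000327). Hoxa9 (chr6:52200077-52203169, minus strand), the member most tied to leukaemia, held 0.604, 0.778 and 0.754 CPM under RE, against 3.79, 4.26 and 3.55 CPM under DMSO (log2 change -2.43 ± 0.16, adjusted p = 0.000174). The 3 RE libraries of each gene lay close to each other and far under the DMSO libraries. Hoxa5 stood at 0.0549, 0.26 and 0.269 CPM under RE, against 0.948, 1.09 and 1.35 CPM under DMSO (log2 change -2.46 ± 0.36, adjusted p = 0.00192). Hoxa6 stood at 0.329, 0.346 and 0.162 CPM under RE, against 1.55, 1.35 and 1.05 CPM under DMSO (log2 change -2.19 ± 0.28, adjusted p = 0.00127). Hoxa3 held 0.275, 0.13 and 0.162 CPM under RE, against 0.898, 0.728 and 1 CPM under DMSO (log2 change -2.20 ± 0.37, adjusted p = 0.00322). Under RE these 3 genes stood at or near the level of a few fragments per library, and in no library did they reach their DMSO values. Hoxa4 stood at 0.275, 0.173 and 0.269 CPM under RE, against 0.648, 0.291 and 0.801 CPM under DMSO and did not pass (adjusted p = 0.128), although its libraries did not overlap either. With the replicate number as a block, where 17.5% of all tested genes fell, all 7 tested HOXA genes fell, Hoxa4 among them (adjusted p = 0.0497). Hoxa10 was too low to test, with 2 fragments over the RE libraries and 26 over the DMSO libraries, a ratio of 0.0842 (exact 95% interval 0.00968 to 0.336, counting error only). Falls were called for the same 5 members in each of the 6 fits that left out 1 library and in the fit of all 18 libraries. Exons of Hoxa7 overlap Mira, and those of Hoxa9 overlap Gm57855. Those of Hoxa3 overlap the antisense genes Hoxaas2 and Hoxaas3. Counting ignored strand, so fragments of these pairs cannot be told apart.

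**Figure D1:**
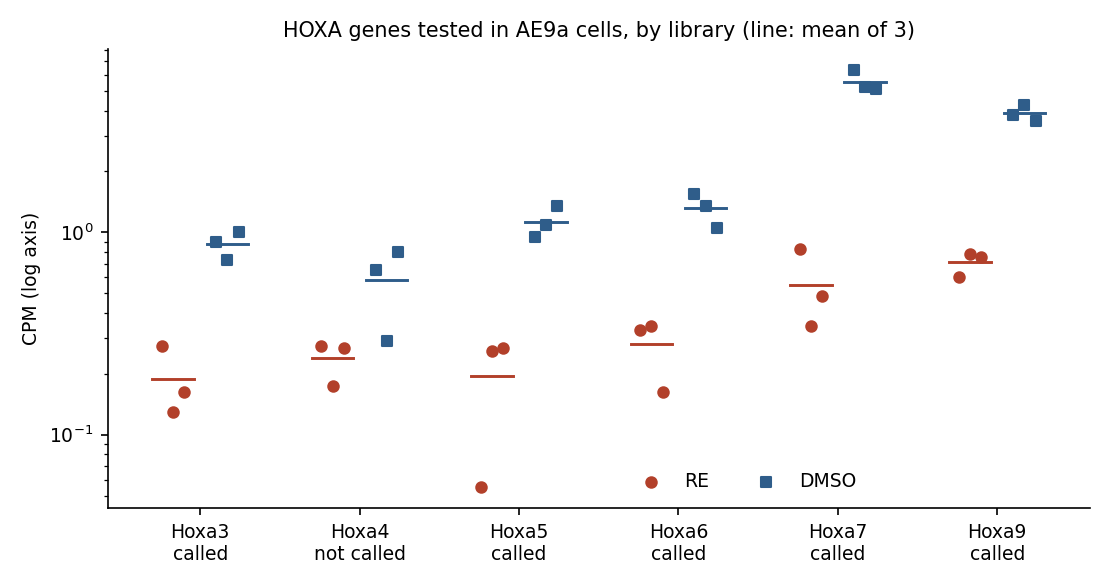
Level of 6 tested HOXA genes in each library, in CPM on a log axis, with RE libraries left of DMSO libraries; points are single libraries. Every RE point lies below every DMSO point of its gene, with Hoxa7 at 0.346 to 0.824 CPM under RE and 5.1 to 6.33 CPM under DMSO.

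Genes of the HOXB and HOXC clusters did not move as one. Of 7 tested members, 1 rose and 1 fell, against 12.2% and 16.8% of all tested genes. With the replicate block 2 fell, against 17.5% of all tested genes. Hoxb13 stood at 4.83, 5.54 and 5.23 CPM under RE, against 2.59, 3.57 and 2.9 CPM under DMSO (log2 change 0.77 ± 0.17, adjusted p = 0.00998). Hoxb4, a factor that expands stem cells when forced, averaged 2.61 ± 0.337 CPM under RE and 4.33 ± 0.379 CPM under DMSO (SD, n = 3 each; log2 change -0.73 ± 0.21, adjusted p = 0.0288). That call was lost on leaving out 1 library (adjusted p = 0.0685 to 0.107 without each of RE replicates 1 and 2 and DMSO replicates 1 and 3 in turn).

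The wider list of HOX cofactors and reported MLL-menin targets held 27 tested genes, of which 9 fell (background 16.8%) and 2 rose, with a median log2 change of -0.24. The falls named below, Dntt excepted, were called in every fit that left out 1 library. Eya1, a phosphatase and transcriptional coactivator, stood at 0.384, 0.0865 and 0.269 CPM under RE, against 1.45, 1.2 and 1.35 CPM under DMSO (log2 change -2.46 ± 0.39, adjusted p = 0.00254). Mecom, which encodes the stem cell factor EVI1, stood at 0.165, 0.432 and 0.377 CPM under RE, against 1.8, 1.35 and 1 CPM under DMSO (log2 change -2.04 ± 0.44, adjusted p = 0.00903). Both were low under DMSO already and lower in every RE library. Tet1, an enzyme that oxidises methylated cytosine, held 1.54, 2.03 and 2.15 CPM under RE, against 5.59, 5.1 and 4.7 CPM under DMSO (log2 change -1.42 ± 0.14, adjusted p = 0.000519), although its exons overlap Gm51805. Dntt, the lymphoid terminal transferase, averaged 1.28 ± 0.416 CPM under RE and 5.03 ± 2.36 CPM under DMSO (SD, n = 3 each; log2 change -1.94 ± 0.56, adjusted p = 0.03). Its DMSO libraries stood at 7.68, 3.17 and 4.25 CPM, and its call was lost on leaving out a library (adjusted p = 0.0545 to 0.109 without each of RE replicates 1, 2 and 3 and DMSO replicates 1 and 3 in turn). The cofactors of HOXA9 did not follow it. Meis1 stood at 14.1, 14.1 and 15.9 CPM under RE, against 13.5, 14.5 and 13.1 CPM under DMSO, overlapping, with a log2 change of 0.10 ± 0.10 (adjusted p = 0.493). Pbx3 averaged 12.9 ± 1.87 CPM under RE and 15.9 ± 1.25 CPM under DMSO (SD, n = 3 each; log2 change -0.31 ± 0.12, adjusted p = 0.0758), also with overlap. The 2 rises, Meis3 (log2 change 0.65 ± 0.20) and Zfp521 (0.58 ± 0.15), were not stable. The count of rises was 0 without RE replicates 2 and 3 and DMSO replicates 1 and 3 in turn and 1 without RE replicate 1 and DMSO replicate 2 in turn.

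Members of the WDR5, MLL and menin complexes changed by small amounts, with log2 changes from -0.32 to 0.19. Of 22 tested genes, 6 fell and 1 rose, against 16.8% and 12.2% of all tested genes, with a median log2 change of -0.065. Dpy30, the core subunit that docks on ASH2L, averaged 31.8 ± 1.03 CPM under RE and 39.8 ± 2.08 CPM under DMSO (SD, n = 3 each; log2 change -0.32 ± 0.067, adjusted p = 0.00808). Paxip1, which encodes the partner PTIP of the MLL3 and MLL4 complexes, averaged 65.4 ± 1.22 CPM under RE and 81.4 ± 3.85 CPM under DMSO (log2 change -0.32 ± 0.048, adjusted p = 0.00204). Psip1, the chromatin tether of menin and MLL1, and Hcfc1, a host cell factor in MLL complexes, fell by less, with log2 changes of -0.24 ± 0.046 and -0.23 ± 0.038 (adjusted p = 0.00609 and 0.00301). Each of these 4 genes was lower in every RE library than in any DMSO library and was called in every fit with 1 library left out. Rbbp5 (log2 change -0.13) and Wdr82 (-0.16), the other members that fell, and Hcfc2 (0.19), the one that rose, lost their calls on leaving out a library. Rbbp5 had adjusted p = 0.0503 to 0.12 without each of RE replicates 1, 2 and 3 and DMSO replicates 1, 2 and 3 in turn. Wdr82 had adjusted p = 0.0504 without RE replicate 2 and adjusted p = 0.0525 without DMSO replicate 1. Hcfc2 had adjusted p = 0.0785 to 0.0856 without each of RE replicates 2 and 3 and DMSO replicates 1 and 3 in turn. Wdr5 itself stood at 127, 122 and 126 CPM under RE, against 137, 134 and 137 CPM under DMSO; the libraries did not overlap, and the log2 change of -0.12 ± 0.045 did not pass (adjusted p = 0.0698). Kmt2a, which encodes MLL1, stood at 136, 145 and 148 CPM under RE, against 144, 152 and 144 CPM under DMSO (log2 change -0.037 ± 0.042, adjusted p = 0.544). Men1, which encodes menin, stood at 72.3, 68.9 and 73.4 CPM under RE, against 76.3, 74.8 and 72.5 CPM under DMSO (log2 change -0.06 ± 0.049, adjusted p = 0.395). RE and DMSO libraries of both overlapped.

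Among the elongation factors and partners of DOT1L, the methyltransferase of histone H3 lysine 79, 3 of 16 tested genes rose and 4 fell. Of all tested genes 12.2% rose and 16.8% fell. Mllt6, which encodes the PHD finger protein AF17, a binding partner of DOT1L, stood at 72.5, 81.8 and 86.7 CPM under RE, against 36.5, 43 and 38.6 CPM under DMSO. Its log2 change of 1.03 ± 0.11 (adjusted p = 0.000663) was called in every fit, and every RE library held more than any DMSO library. Aff4, the scaffold of the super elongation complex, averaged 448 ± 23.8 CPM under RE and 367 ± 32 CPM under DMSO (SD, n = 3 each; log2 change 0.29 ± 0.064, adjusted p = 0.0107). Ell, one of its subunits, averaged 47.2 ± 1.49 CPM under RE and 39.1 ± 1.55 CPM under DMSO (log2 change 0.27 ± 0.051, adjusted p = 0.0053). Dot1l averaged 113 ± 1.77 CPM under RE and 133 ± 6.06 CPM under DMSO (log2 change -0.23 ± 0.042, adjusted p = 0.00487). The other 3 falls, of Mllt1 (log2 change -0.17), Ccnt1 (-0.12) and Ctr9 (-0.11), depended on single libraries. The count of falls was 1 without RE replicates 1 and 2 and DMSO replicates 1 and 3 in turn and 2 without RE replicate 3. With the replicate block Ccnt1 and Ctr9 did not pass (adjusted p = 0.0682 and 0.0569). Of 18 tested Polycomb genes, the repressive counterpart of MLL, 5 fell and 2 rose, against 16.8% and 12.2% of all tested genes. Mtf2 averaged 83.4 ± 4.47 CPM under RE and 108 ± 3.16 CPM under DMSO (SD, n = 3 each; log2 change -0.37 ± 0.049, adjusted p = 0.00138). Suz12, a core subunit of PRC2, averaged 161 ± 6.77 CPM under RE and 199.5 ± 7.68 CPM under DMSO (log2 change -0.31 ± 0.048, adjusted p = 0.00222). The methyltransferase gene Ezh2 averaged 100.1 ± 3.48 CPM under RE and 125 ± 6.25 CPM under DMSO (log2 change -0.32 ± 0.045, adjusted p = 0.00161). All 3 encode proteins of PRC2, which marks silent genes. Eed (log2 change -0.25) and Jarid2 (-0.19) fell, and Ezh1 (0.30) and Bmi1 (0.21) rose, without the same stability. The falls counted were 3 without RE replicates 2 and 3 and DMSO replicate 1 in turn, and the rises 0 without RE replicate 2 and DMSO replicate 1 in turn and 1 without RE replicate 3 and DMSO replicates 2 and 3 in turn.

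Over all genes, 4261 of 14704 tested genes (29.0%) changed, 1797 higher (12.2%) and 2464 lower (16.8%) under RE. Most changes were small: 252 genes (1.71%) rose and 192 (1.31%) fell by at least 2-fold. The RE libraries lay entirely above the DMSO libraries for 3380 genes (23.0%) and entirely below them for 3820 (26.0%). The count was 2351 without DMSO replicate 1, 2458 without RE replicate 2 and 2790 without RE replicate 3, and 5428 without AE9a C16 replicate 3. With all 18 libraries in 1 fit, where the WT libraries enter the estimate of the spread, it was 500. Of the 4261 genes 497 (11.7%) were among them. No called gene changed its direction in any fit.

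The genes that fell most, ranked by log2 change by the same criteria, included some surface and signalling genes of early progenitors beside Hoxa7. Over the list of stem and early progenitor genes the median log2 change was -0.17. Adgrl4, an adhesion G protein-coupled receptor of endothelium and early progenitors, stood at 1.26, 0.735 and 1.19 CPM under RE, against 12.8, 9.14 and 9.31 CPM under DMSO (log2 change -3.31 ± 0.44, adjusted p = 0.00143). Arhgap32, a GTPase-activating protein, held 2.8, 2.21 and 2.05 CPM under RE, against 11.4, 8.12 and 7.21 CPM under DMSO (log2 change -1.92 ± 0.19, adjusted p = 0.000557). Aff3, a relative of AFF4 first described in lymphoid cells, had 6.7, 6.36 and 5.39 CPM under RE, against 22.8, 18.2 and 20.1 CPM under DMSO (log2 change -1.72 ± 0.11, adjusted p = 0.000174). In each of these 3 genes the highest RE library lay below the lowest DMSO library by a wide margin. Ptk7, a Wnt pathway receptor-like kinase, stood at 6.15, 5.67 and 3.99 CPM under RE, against 17.6, 17.5 and 15.9 CPM under DMSO (log2 change -1.69 ± 0.14, adjusted p = 0.000379). Gria3, a subunit of the AMPA glutamate receptor, had 13.4, 12.7 and 11.4 CPM under RE, against 41.6, 34.3 and 40.6 CPM under DMSO (log2 change -1.63 ± 0.12, adjusted p = 0.000274). Cd27, a TNF receptor family member carried by early progenitors, averaged 2.94 ± 0.206 CPM under RE and 8.07 ± 0.241 CPM under DMSO (SD, n = 3 each; log2 change -1.45 ± 0.096, adjusted p = 0.000174). Flt3, the receptor of early multipotent and lymphoid-primed progenitors, averaged 5.1 ± 0.48 CPM under RE and 13.7 ± 1.74 CPM under DMSO (log2 change -1.43 ± 0.17, adjusted p = 0.000904). The remaining genes of the 20 largest falls included Pkhd1l1 (log2 change -1.87), the lymphoid marker Ly6d (-1.72), Nxpe5 (-1.68), Rhobtb3 (-1.55), Nmnat2 (-1.45) and Klrb1f (-1.40). Of the 20, 19 were called in every fit that left out 1 library, Dntt being the exception, and 11 in the fit of all 18 libraries.

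Some of the largest rises varied widely between libraries. Etl4 stood at 14.6, 19.9 and 44.1 CPM under RE, against 1.75, 1.78 and 7.86 CPM under DMSO (log2 change 2.82 ± 0.60, adjusted p = 0.00891), and replicate 3 was the highest library of both groups. Dgki, a diacylglycerol kinase, showed the same order, with 5.54, 6.92 and 13.7 CPM under RE, against 0.798, 0.91 and 2.15 CPM under DMSO (log2 change 2.78 ± 0.44, adjusted p = 0.00248). Mlph, which links RAB27A-bound vesicles to myosin in pigment cells, had 17.4, 17.1 and 20.2 CPM under RE, against 2.54, 3.35 and 4.7 CPM under DMSO (log2 change 2.37 ± 0.33, adjusted p = 0.00163). Its RE libraries were closer to each other, and all lay well above the DMSO libraries. Ghr, the growth hormone receptor, averaged 6.6 ± 0.702 CPM under RE and 1.26 ± 0.424 CPM under DMSO (SD, n = 3 each; log2 change 2.35 ± 0.33, adjusted p = 0.00163). Tnfrsf9, the costimulatory receptor 4-1BB, which activated mast cells also carry, stood at 37.5, 38 and 40.9 CPM under RE, against 9.13, 11.1 and 13.1 CPM under DMSO (log2 change 1.80 ± 0.17, adjusted p = 0.000499). Camk2n1, an inhibitor of CaM kinase II, averaged 6.2 ± 0.959 CPM under RE and 1.75 ± 0.203 CPM under DMSO (log2 change 1.82 ± 0.31, adjusted p = 0.0033). Cald1 (log2 change 1.98) and Kcnq1 (1.85, with exons overlapping the antisense transcript Kcnq1ot1) were also among the 20 largest rises. Of the 20, 13 were called in every fit that left out 1 library and 6 in the fit of all 18. Cstdc5 and Stfa1 of the stefin A cluster and Speer4d are members of near-identical gene copies, and their values are uncertain.

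**Figure D2:**
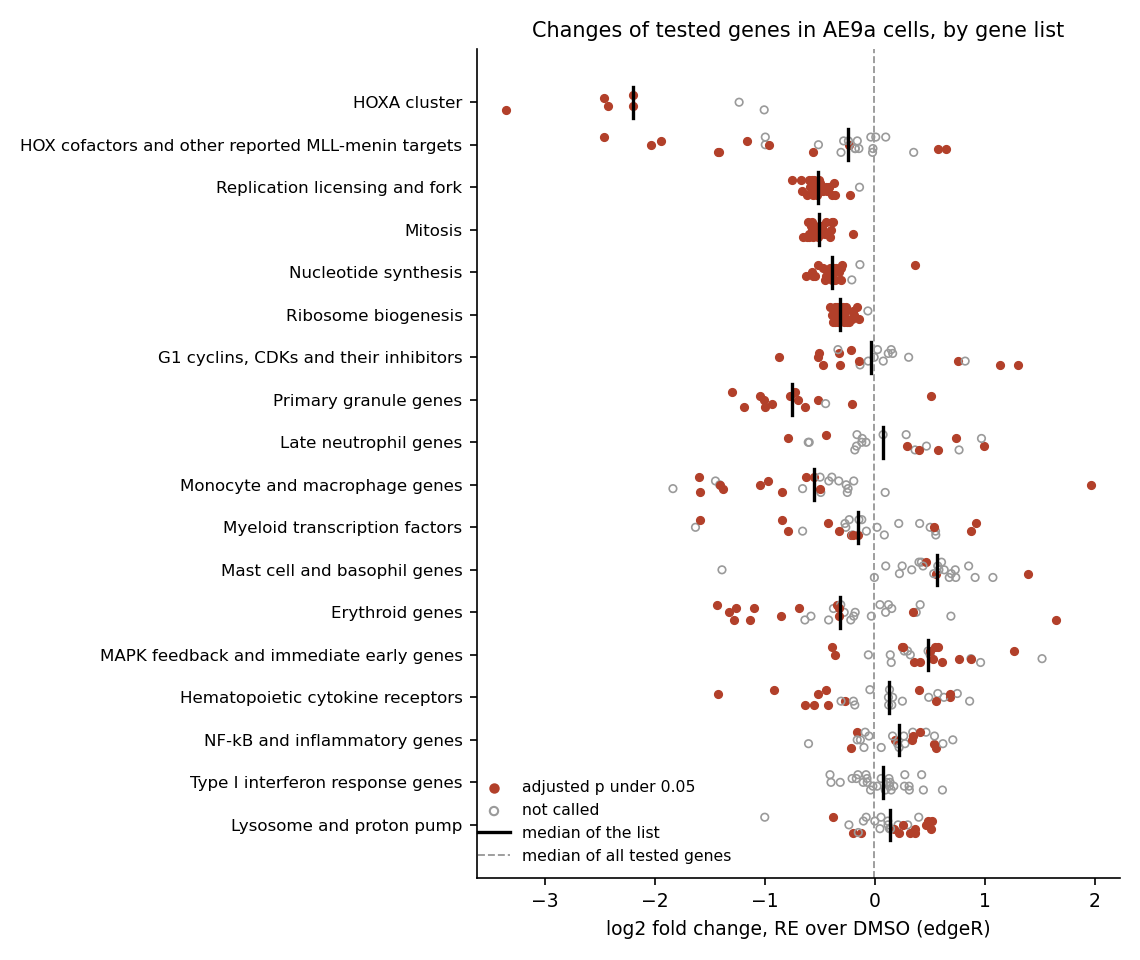
Log2 change of RE over DMSO for the tested genes of 18 gene lists; each point is a gene, filled where the adjusted p was under 0.05, and ticks mark list medians. Replication, mitosis and ribosome biogenesis genes lie below 0 with medians of -0.52, -0.51 and -0.31, while the HOXA median is -2.20.

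Genes of the dividing cell fell together and by less than 2-fold. All 30 genes for replication licensing and the replication fork were lower in every RE library than in any DMSO library, as were 26.0% of all tested genes. Of the 30 genes 29 fell by the test, against 16.8% of all tested genes, and 0 rose. Their median log2 change was -0.52. Mcm6, a subunit of the MCM helicase, stood at 208, 190.2 and 187 CPM under RE, against 327, 285 and 315 CPM under DMSO (log2 change -0.67 ± 0.058, adjusted p = 0.000403). Cdc6, which loads that helicase onto origins, had 40.1, 38.1 and 39.8 CPM under RE, against 63.7, 59.1 and 63.6 CPM under DMSO (log2 change -0.66 ± 0.043, adjusted p = 0.000174). The spread of each group was small against the gap between them. Gins1, of the GINS complex, averaged 11.9 ± 0.246 CPM under RE and 20.1 ± 1.62 CPM under DMSO (SD, n = 3 each; log2 change -0.76 ± 0.069, adjusted p = 0.000475). Mcm7, a further subunit of the helicase, averaged 134 ± 10.5 CPM under RE and 204 ± 15 CPM under DMSO (log2 change -0.61 ± 0.068, adjusted p = 0.000749). The primase gene Prim1 averaged 27.9 ± 1.84 CPM under RE and 42.3 ± 3.46 CPM under DMSO (log2 change -0.60 ± 0.073, adjusted p = 0.000981). Gins4 alone did not pass (adjusted p = 0.107). The windows before Mcm6 and Mcm5 are shown because replication genes are textbook targets of E2F factors. Capitals mark the 8-letter words searched, TTTGGCGC, TTTCCCGC, TTTGCCGC and TTTCGCGC, on either strand. The Mcm6 window (chr1:128359706-128359955, GRCm38.p6, minus strand) held 3 matches, 2 of them overlapping, and the Mcm5 window (chr8:75109259-75109508, plus strand) 2 overlapping matches.
Mcm6: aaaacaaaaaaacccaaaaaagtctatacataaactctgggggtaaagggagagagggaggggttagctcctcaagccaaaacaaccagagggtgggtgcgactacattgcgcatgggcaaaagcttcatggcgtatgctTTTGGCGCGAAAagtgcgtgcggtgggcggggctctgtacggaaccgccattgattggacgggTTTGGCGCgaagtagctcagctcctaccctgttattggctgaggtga
Mcm5: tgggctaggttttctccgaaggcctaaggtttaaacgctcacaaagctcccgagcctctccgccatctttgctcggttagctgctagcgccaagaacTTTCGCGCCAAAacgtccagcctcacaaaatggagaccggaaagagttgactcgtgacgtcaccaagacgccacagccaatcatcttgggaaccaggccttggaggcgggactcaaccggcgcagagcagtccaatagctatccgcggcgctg

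Such words occurred in 8 of the 28 windows of the 24 replication genes that matched the RefSeq table (28.6%). They occurred in 6.09% of the windows of all genes that fell, in 3.04% of those of tested genes and in 1.86% of all windows. They occurred in 0 of 164 windows of genes that fell by at least 2-fold. The letters CCAAT, on either strand, stood in 57.1% of the replication windows and in 76.0% of the 25 windows of mitosis genes, against 33.8% of all windows. The letters TTTGAA, the core of the cell cycle homology region, stood in 32.0% of mitosis windows and 16% of all windows. A match describes the letters and is no measure of binding. Mcm5 averaged 154 ± 13.8 CPM under RE and 226 ± 19.9 CPM under DMSO (SD, n = 3 each; log2 change -0.55 ± 0.076, adjusted p = 0.00156), and in both genes every RE library lay below every DMSO library.

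Of 24 enzymes of nucleotide synthesis 21 fell and 1 rose, against 16.8% and 12.2% of all tested genes. Their median log2 change was -0.39. Dut, which keeps uracil out of DNA, averaged 70.3 ± 3.8 CPM under RE and 108 ± 9.09 CPM under DMSO (SD, n = 3 each; log2 change -0.62 ± 0.07, adjusted p = 0.000799). Rrm1, the large subunit of ribonucleotide reductase, averaged 199 ± 16.3 CPM under RE and 296 ± 23.3 CPM under DMSO (log2 change -0.57 ± 0.07, adjusted p = 0.000992). Thymidine kinase Tk1 averaged 27.2 ± 1.63 CPM under RE and 40.2 ± 3.57 CPM under DMSO (log2 change -0.56 ± 0.072, adjusted p = 0.00124). In all 3 genes the RE means lay below the DMSO means by several times the SD of either group. The folate enzymes Mthfd1 and Shmt1 fell with log2 changes of -0.54 ± 0.059 and -0.51 ± 0.068. The rise was in Impdh1, the isoform of IMP dehydrogenase not tied to proliferation, at 165, 178 and 179.7 CPM under RE, against 125, 151 and 131 CPM under DMSO (log2 change 0.36 ± 0.068, adjusted p = 0.00512), without overlap.

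All 28 tested mitosis genes fell, against 16.8% of all tested genes. In each the RE libraries lay entirely below the DMSO libraries, as in 26.0% of all tested genes. The median log2 change was -0.51. Top2a, the topoisomerase that untangles sister chromatids, stood at 396, 363 and 367 CPM under RE, against 605, 522 and 583 CPM under DMSO (log2 change -0.60 ± 0.059, adjusted p = 0.000529). Anln, of the contractile ring, averaged 45.9 ± 3 CPM under RE and 72 ± 7.45 CPM under DMSO (SD, n = 3 each; log2 change -0.65 ± 0.079, adjusted p = 0.000999). The spindle gene Tpx2 averaged 95.8 ± 4.25 CPM under RE and 146 ± 13.3 CPM under DMSO (log2 change -0.61 ± 0.064, adjusted p = 0.000663). Both fell by nearly the same factor. The checkpoint kinase gene Ttk averaged 20.4 ± 1.25 CPM under RE and 30.8 ± 3.09 CPM under DMSO (log2 change -0.59 ± 0.077, adjusted p = 0.00124). The kinetochore gene Nuf2 averaged 30.9 ± 2.4 CPM under RE and 46.6 ± 3.81 CPM under DMSO (log2 change -0.59 ± 0.078, adjusted p = 0.00131). Across the fits that left out 1 library, 28 to 29 replication genes and 26 to 28 mitosis genes fell. In the fit of all 18 libraries 5 replication, 2 nucleotide synthesis and 0 mitosis genes fell, and their medians stayed at -0.48, -0.35 and -0.47.

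Ribosome biogenesis genes fell by less and as widely: 29 of 30, with 0 rises, all 30 without overlap and a median log2 change of -0.31. Of all tested genes 16.8% fell, and 26.0% were lower without overlap. Nop56, a core protein of box C/D snoRNPs, averaged 172 ± 5.29 CPM under RE and 228 ± 11.8 CPM under DMSO (SD, n = 3 each; log2 change -0.41 ± 0.044, adjusted p = 0.000704), with exons that overlap Idh3b and a small RNA gene. Dkc1, the pseudouridine synthase of box H/ACA snoRNPs, averaged 104 ± 2.57 CPM under RE and 137 ± 6.98 CPM under DMSO (log2 change -0.39 ± 0.044, adjusted p = 0.000776). Pwp2, Wdr43 and Tcof1, which serve the small subunit and RNA polymerase I, fell with log2 changes of -0.38 ± 0.068, -0.36 ± 0.054 and -0.36 ± 0.052. Polr1a, the catalytic subunit of RNA polymerase I, was the member that did not pass (log2 change -0.062 ± 0.033, adjusted p = 0.188). Between 21 and 27 genes fell when 1 library was left out, and 0 in the fit of all 18 libraries.

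In the MYC and MAX network 3 of 12 tested genes rose and 3 fell, against 12.2% and 16.8% of all tested genes. The replicate block gave 5 falls, against 17.5%. Myc, the driver of ribosome and nucleotide genes, stood at 156, 154 and 135 CPM under RE, against 206, 198 and 176 CPM under DMSO (log2 change -0.38 ± 0.087, adjusted p = 0.0118), without overlap. Its call was lost without 1 library (adjusted p = 0.0521 without DMSO replicate 1). Mxd1, a MAX partner that represses MYC targets and rises as myeloid cells mature, had 230.0, 226 and 225 CPM under RE, against 156, 159.7 and 164 CPM under DMSO (log2 change 0.51 ± 0.11, adjusted p = 0.00993). Its RE libraries lay within a few CPM of each other, as did its DMSO libraries. Mnt, a further repressive partner, averaged 75.7 ± 1.54 CPM under RE and 62.7 ± 4.07 CPM under DMSO (SD, n = 3 each; log2 change 0.27 ± 0.055, adjusted p = 0.00698). Max (-0.17 ± 0.035) and Mga (-0.20 ± 0.041) fell on the log2 scale. Mxd4 rose (log2 change 0.40 ± 0.11), with adjusted p = 0.063 to 0.081 without each of RE replicates 2 and 3 and DMSO replicates 1 and 3 in turn.

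Of 22 tested G1 cyclins, CDKs and inhibitors 3 rose and 8 fell, against 12.2% and 16.8% of all tested genes. Ccnd2, cyclin D2, stood at 1201, 1370.5 and 1439.6 CPM under RE, against 700.3, 891 and 788 CPM under DMSO (log2 change 0.75 ± 0.10, adjusted p = 0.00146), without overlap. Ccnd1, cyclin D1, had 18.9, 26 and 21.2 CPM under RE, against 7.73, 9.94 and 9.06 CPM under DMSO (log2 change 1.30 ± 0.30, adjusted p = 0.012). The gene had adjusted p = 0.0519 without RE replicate 2 and adjusted p = 0.054 without DMSO replicate 1, and its exons overlap LTO1. Both D cyclins were thus higher in every RE library. Cdkn2a, which encodes the INK4A and ARF tumour suppressors, averaged 95.6 ± 13.9 CPM under RE and 43.4 ± 10.6 CPM under DMSO (SD, n = 3 each; log2 change 1.14 ± 0.36, adjusted p = 0.0435). This gene had adjusted p = 0.0703 to 0.154 without each of RE replicates 1, 2 and 3 and DMSO replicates 1, 2 and 3 in turn, and an adjusted p of 0.365 by DESeq2. Without RE replicate 2, or without DMSO replicate 1, 1 gene of the list rose. Cdkn2c, an INK4 inhibitor of CDK6, stood at 10.1, 10.9 and 13 CPM under RE, against 21.8, 19.6 and 21 CPM under DMSO (log2 change -0.87 ± 0.12, adjusted p = 0.00164). The atypical repressor gene E2f7 averaged 14.5 ± 1.45 CPM under RE and 20.7 ± 0.841 CPM under DMSO (log2 change -0.52 ± 0.078, adjusted p = 0.00203). The CDK inhibitor gene Cdkn1a, at 219, 251 and 237 CPM under RE, against 171, 208 and 193 CPM under DMSO, did not pass (adjusted p = 0.159). Its relative Cdkn1b, at 58, 67 and 67 CPM under RE, against 56.9, 60.0 and 59.5 CPM under DMSO, did not pass either (adjusted p = 0.355).

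**Figure D3:**
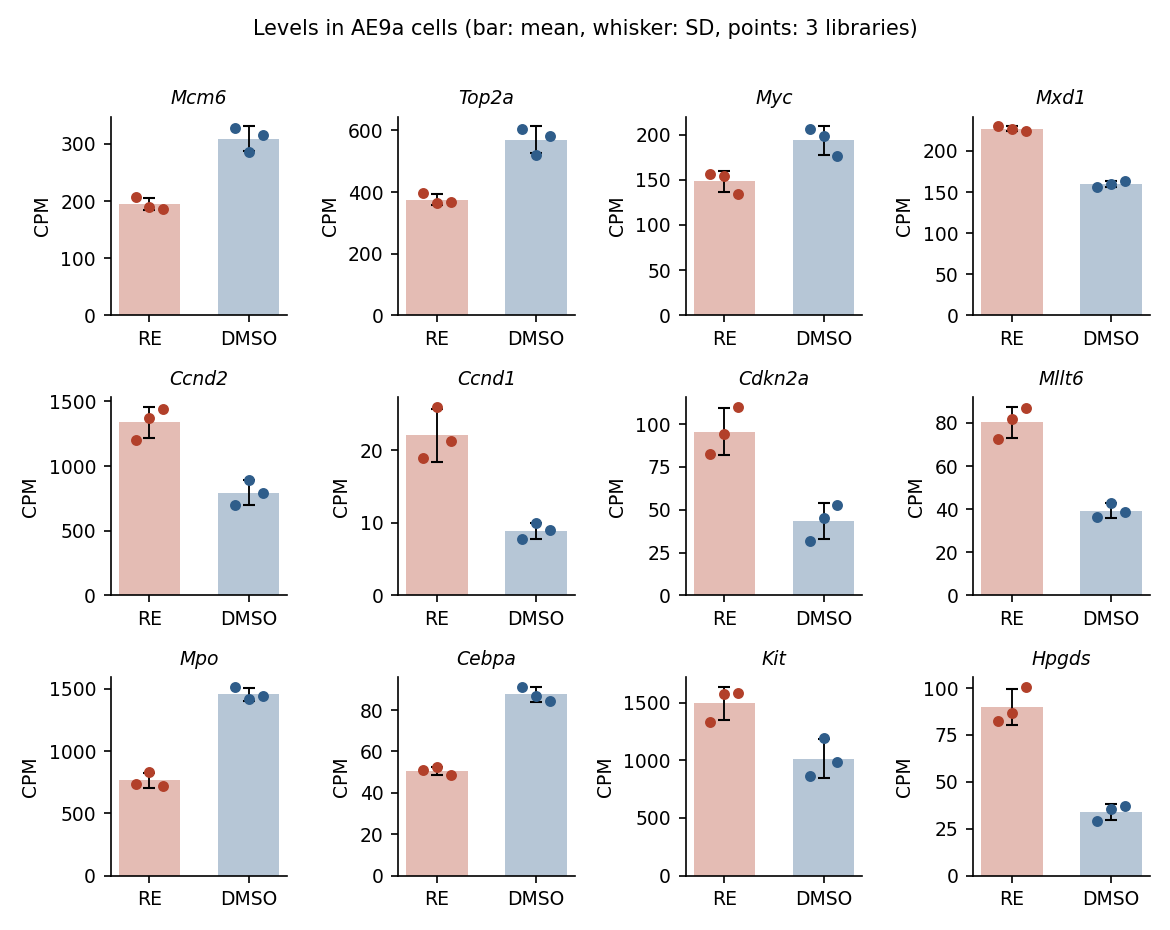
Level in CPM of 12 genes in AE9a cells, RE left and DMSO right; bars are means with SD of 3 libraries, and points are libraries, on linear axes from 0. Mcm6, Top2a, Myc, Mpo and Cebpa are lower under RE and Mxd1, Ccnd2, Ccnd1, Cdkn2a, Mllt6, Kit and Hpgds are higher, without overlap of the points.

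Granule genes of neutrophil precursors fell under RE. Of 15 primary granule genes 14 were in the table and tested. Of these 12 fell and 1 rose, against 16.8% and 12.2% of all tested genes, and the median log2 change was -0.75. Summed over the list, RE libraries held 4376 to 4607 CPM and DMSO libraries 5838 to 6051 CPM. Elane, neutrophil elastase, stood at 176, 208 and 164 CPM under RE, against 443, 424 and 486 CPM under DMSO (log2 change -1.30 ± 0.15, adjusted p = 0.000801). Mpo, myeloperoxidase, had 736, 834 and 722 CPM under RE, against 1516, 1416 and 1438 CPM under DMSO (log2 change -0.93 ± 0.097, adjusted p = 0.000663). In both genes every RE library lay far below every DMSO library. Prtn3, proteinase 3, averaged 210.5 ± 6.61 CPM under RE and 421 ± 34 CPM under DMSO (SD, n = 3 each; log2 change -1.0 ± 0.066, adjusted p = 0.000174). Hp, haptoglobin, averaged 118 ± 6.41 CPM under RE and 269.8 ± 44.7 CPM under DMSO (log2 change -1.19 ± 0.11, adjusted p = 0.000475). Haptoglobin, a secreted plasma protein, thus fell as the proteases did. Nkg7 averaged 13.1 ± 1.63 CPM under RE and 27.1 ± 3.53 CPM under DMSO (log2 change -1.04 ± 0.19, adjusted p = 0.00468). Serpinb1a, the inhibitor of those proteases, went the other way, with 1936 ± 130.4 CPM under RE and 1359 ± 196 CPM under DMSO (log2 change 0.51 ± 0.16, adjusted p = 0.0371). This gene had adjusted p = 0.0555 to 0.129 without each of RE replicates 1, 2 and 3 and DMSO replicates 1 and 3 in turn. When 1 library was left out 10 to 12 genes fell, and in the fit of all 18 libraries 1, Nkg7.

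Late neutrophil genes were mixed. Of 21 tested 5 rose and 2 fell, against 12.2% and 16.8% of all tested genes, with a median of 0.076. None of the 7 was called in every fit with 1 library left out. Rises numbered 0 without RE replicates 1 and 2 and DMSO replicates 2 and 3 in turn and 2 without DMSO replicate 1, and falls 0 without RE replicates 2 and 3 and DMSO replicates 1 and 3 in turn. Olfm4 averaged 22.7 ± 6.45 CPM under RE and 11.4 ± 4.37 CPM under DMSO (SD, n = 3 each; log2 change 0.99 ± 0.29, adjusted p = 0.0328). The chitinase-like Chil3 averaged 262 ± 48.1 CPM under RE and 157 ± 20.4 CPM under DMSO (log2 change 0.74 ± 0.22, adjusted p = 0.0329). The collagenase Mmp8 averaged 147 ± 32.2 CPM under RE and 254 ± 27.2 CPM under DMSO (log2 change -0.79 ± 0.21, adjusted p = 0.0235). Ngp, S100a9 and Cd177 rose and Csf3r fell with log2 changes of 0.57, 0.40, 0.29 and -0.44. Cd177 did not pass with the replicate block (adjusted p = 0.0684). The summed level of the list ran from 5415 to 7377 CPM in RE libraries and from 5329 to 6274 CPM in DMSO libraries.

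Monocyte and macrophage genes fell more than they rose: 10 of 25 fell, 1 rose, and the median log2 change was -0.55. Of all tested genes 16.8% fell and 12.2% rose. F13a1, coagulation factor XIII A, stood at 40.6, 44.2 and 35.9 CPM under RE, against 97.7, 95 and 129 CPM under DMSO (log2 change -1.41 ± 0.12, adjusted p = 0.000403). Cx3cr1, the fractalkine receptor, had 3.4, 2.21 and 2.8 CPM under RE, against 6.54, 6.41 and 8.91 CPM under DMSO (log2 change -1.38 ± 0.22, adjusted p = 0.0026). Ly86, the partner of the Toll-like protein RP105, averaged 1.29 ± 0.242 CPM under RE and 3.9 ± 0.302 CPM under DMSO (log2 change -1.59 ± 0.36). In all 3 genes the libraries did not overlap, and the calls held on leaving out any 1 library. Clec10a, a galactose-binding lectin of macrophages and dendritic cells, was the exception at 49.6, 76.5 and 109 CPM under RE, against 12.9, 19.3 and 28.1 CPM under DMSO (log2 change 1.96 ± 0.31, adjusted p = 0.00248). The list summed to 1183 to 1651 CPM under RE and 1896 to 2025 CPM under DMSO. Of 16 tested genes of dendritic cells and MHC class II 0 rose and 3 fell, namely Flt3, Siglech and Tcf4. Their summed level was nevertheless higher in every RE library, at 1227 to 1279 CPM under RE and 1010.1 to 1201 CPM under DMSO, and their median log2 change was 0.0064. Siglech, a lectin of plasmacytoid dendritic cells, averaged 1.71 ± 0.588 CPM under RE and 4.79 ± 1.39 CPM under DMSO (log2 change -1.50 ± 0.34, adjusted p = 0.0113). Tcf4 encodes E2-2, the factor that specifies those cells. Tcf4 stood at 15, 12.9 and 13.1 CPM under RE, against 33.9, 28.2 and 33.1 CPM under DMSO (log2 change -1.21 ± 0.092, adjusted p = 0.000306), and it passed in the fit of all 18 libraries as well (adjusted p = 1.51e-05).

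Transcription factors of the myeloid line fell more often than they rose. Of 27 tested 8 fell, against 16.8% of all tested genes, and 3 rose, a share near the 12.2% of all tested genes. Cebpa, which drives granulocyte-monocyte commitment, stood at 50.9, 52.5 and 48.7 CPM under RE, against 91.2, 87 and 84.3 CPM under DMSO (log2 change -0.79 ± 0.077, adjusted p = 0.000529). Spi1, which encodes PU.1, overlapped at 179.7, 173 and 169 CPM under RE, against 189, 172 and 189.8 CPM under DMSO (log2 change -0.076 ± 0.061, adjusted p = 0.385). Irf8, of the monocyte and dendritic branch, averaged 32.2 ± 2.92 CPM under RE and 57.6 ± 8.04 CPM under DMSO (SD, n = 3 each; log2 change -0.84 ± 0.22, adjusted p = 0.0196), with adjusted p = 0.0643 to 0.0713 without each of RE replicates 2 and 3 and DMSO replicates 1 and 3 in turn. Egr3 averaged 11.7 ± 1.07 CPM under RE and 6.18 ± 0.469 CPM under DMSO (log2 change 0.92 ± 0.13, adjusted p = 0.00153). Egr1, an immediate early factor, averaged 89.1 ± 4.14 CPM under RE and 48.7 ± 14.7 CPM under DMSO (log2 change 0.87 ± 0.22, adjusted p = 0.0171; adjusted p = 0.0557 without RE replicate 3 and adjusted p = 0.0705 without DMSO replicate 1). Klf6 was the other gene that rose (log2 change 0.54 ± 0.068). Myb, which keeps progenitors immature, averaged 282 ± 11.7 CPM under RE and 324 ± 24.3 CPM under DMSO (log2 change -0.20 ± 0.056, adjusted p = 0.0301), with adjusted p = 0.0646 to 0.0877 without each of RE replicates 1 and 3 and DMSO replicates 1 and 2 in turn. Falls numbered 5 without RE replicate 3 and DMSO replicates 1 and 3 in turn. Among stem and early progenitor genes 8 of 26 fell and 4 rose, against 16.8% and 12.2% of all tested genes. Besides Adgrl4 and Mecom, Hlf, a leucine zipper factor of stem cells, stood at 2.75, 2.94 and 1.94 CPM under RE, against 6.63, 5.53 and 4.3 CPM under DMSO (log2 change -1.10 ± 0.19, adjusted p = 0.00377). Sox4, a factor of early progenitors, stood at 13.4, 12 and 11 CPM under RE, against 27.6, 22 and 21.3 CPM under DMSO (log2 change -0.96 ± 0.11, adjusted p = 0.000801). In neither gene did the groups overlap. Cd34 overlapped (log2 change -0.20 ± 0.086, adjusted p = 0.107). Summed levels of the list overlapped as well, at 3897 to 4421 CPM under RE and 3359 to 3981 CPM under DMSO. The 4 rises, Kit, Tal1, Bmi1 and Egr1, numbered 0 without RE replicate 3 and DMSO replicate 1 in turn and 1 without RE replicate 2 and DMSO replicate 3 in turn.

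Most mast cell genes were higher in the RE libraries, but few passed the test. Of 24 mast cell and basophil genes, all tested, 3 rose and 0 fell, against 12.2% and 16.8% of all tested genes. The replicate block gave 4 rises and 1 fall, against 13.6% and 17.5%. Of the 24, 17 lay higher in every RE library than in any DMSO library, as did 23.0% of all tested genes. The median log2 change was 0.57. Hpgds, the haematopoietic prostaglandin D synthase, stood at 82.2, 86.5 and 101 CPM under RE, against 29.3, 35.7 and 37.2 CPM under DMSO (log2 change 1.40 ± 0.12, adjusted p = 0.000419). Kit, by which the cells had been selected and on which mast cells depend, had 1331, 1574 and 1579 CPM under RE, against 864, 1195 and 984 CPM under DMSO (log2 change 0.56 ± 0.15, adjusted p = 0.0233), with adjusted p = 0.0718 to 0.0865 without each of RE replicates 2 and 3 and DMSO replicates 1 and 3 in turn. Both genes were higher in all 3 RE libraries. Mitf, the master factor of mast cells, averaged 109 ± 8.13 CPM under RE and 79.3 ± 10.8 CPM under DMSO (SD, n = 3 each; log2 change 0.46 ± 0.14, adjusted p = 0.0317), with adjusted p = 0.0854 to 0.114 without each of RE replicates 2 and 3 and DMSO replicates 1 and 3 in turn. Hdc, which makes histamine, averaged 2795 ± 37 CPM under RE and 1484 ± 187 CPM under DMSO. Cpa3, the mast cell carboxypeptidase, averaged 4825 ± 457 CPM under RE and 2904 ± 387 CPM under DMSO. Neither passed (adjusted p = 0.0987 and 0.361). These tests included the C16 libraries. In the fit of the 6 RE and DMSO libraries alone 17 of the 24 rose and 1 fell, with Hdc and Cpa3 among the rises (adjusted p = 0.000808 and 0.00225). Of all 14387 genes tested in that fit 2433 rose and 2531 fell. Without AE9a C16 replicate 3, the library that lay apart from the other C16 libraries, 17 rose as well. There 2484 of all 15009 tested genes rose. The cause of these shifts was not tested. Rises numbered 1 without RE replicates 2 and 3 and DMSO replicates 1 and 3 in turn. The list summed to 25266 to 29200.0 CPM in RE libraries and 16119 to 21596 CPM in DMSO libraries. Of its genes 0 were at 0 in the 6 libraries. Such a difference in the share of mast cell transcripts accompanies each rise and fall given here, and its part in them was not tested.

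Other lineage markers moved in both directions. Of 30 tested erythroid genes 11 fell and 2 rose, against 16.8% and 12.2% of all tested genes, with a median of -0.32. The ammonia channel gene Rhag averaged 1.87 ± 0.673 CPM under RE and 4.67 ± 0.249 CPM under DMSO (SD, n = 3 each; log2 change -1.33 ± 0.24, adjusted p = 0.00466). The blood group gene Ermap averaged 18.4 ± 2.52 CPM under RE and 44.8 ± 2.56 CPM under DMSO (log2 change -1.28 ± 0.20, adjusted p = 0.0023). Both genes were lower in every RE library and held their calls on leaving out any 1 library. Add2, beta-adducin, rose with a wide spread, at 72.7, 95.3 and 179 CPM under RE, against 16.8, 30.2 and 64 CPM under DMSO (log2 change 1.65 ± 0.54, adjusted p = 0.0486). It had adjusted p = 0.0518 to 0.182 without each of RE replicates 1, 2 and 3 and DMSO replicates 1 and 2 in turn. Tal1, the other rise, had a log2 change of 0.35 ± 0.11 (adjusted p = 0.131 to 0.156 without each of RE replicates 2 and 3 and DMSO replicates 1 and 3 in turn). Falls numbered 7 without RE replicate 2 and DMSO replicates 1 and 3 in turn. Erythroid sums of 1801 to 2154 CPM under RE and 2099.5 to 2369 CPM under DMSO overlapped. Megakaryocyte genes summed to 821 to 1025 CPM under RE and 641 to 789 CPM under DMSO. Of 17 tested 1 rose, Gp6, the collagen receptor, against 12.2% of all tested genes, and 5 rose with the replicate block, against 13.6%. Gp6 averaged 1.51 ± 0.885 CPM under RE and 0.49 ± 0.299 CPM under DMSO (log2 change 1.59 ± 0.51, adjusted p = 0.0455). The gene had adjusted p = 0.0503 to 0.151 without each of RE replicates 1 and 2 and DMSO replicates 1, 2 and 3 in turn. Eosinophil peroxidase Epx fell with overlap, at 28.9, 31.1 and 22.7 CPM under RE, against 114, 68.6 and 28.1 CPM under DMSO (log2 change -1.34 ± 0.41, adjusted p = 0.0383). It had adjusted p = 0.0724 to 0.144 without each of RE replicates 1, 2 and 3 and DMSO replicates 1 and 2 in turn. T and NK genes summed to 816 to 1048 CPM under RE and 356 to 508 CPM under DMSO. Of the 18 listed genes 15 were under 1 CPM, and Cd3e was at 0 in all 6 libraries. Of 3 tested 0 rose and 2 fell, Nkg7 and Lck, a kinase of the T cell receptor pathway, in every fit that left out 1 library. Lck averaged 1.78 ± 0.192 CPM under RE and 3.48 ± 0.624 CPM under DMSO (log2 change -0.96 ± 0.19, adjusted p = 0.00714). Nearly all of the sum was Gzmb, a granzyme that mast cells also make, which did not pass (926 ± 117 CPM under RE and 422 ± 89.3 CPM under DMSO; adjusted p = 0.245). The part of any of these cell types in the results was not tested.

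**Figure D4:**
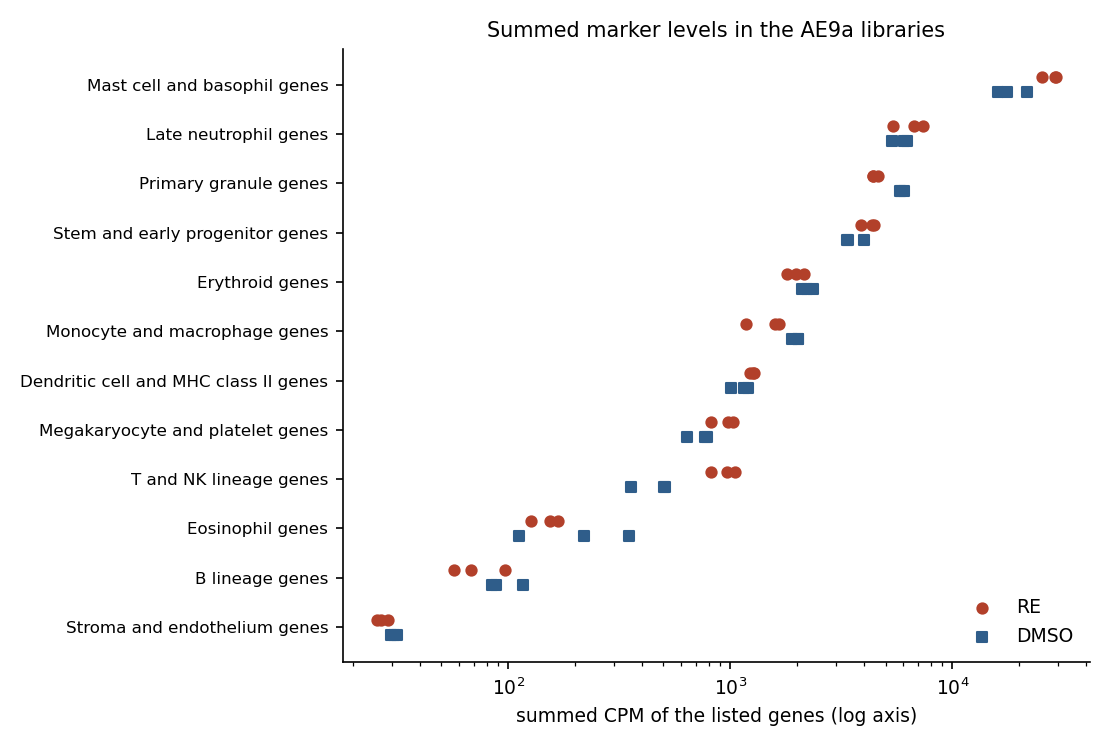
Summed level of 12 marker lists in each library, in CPM on a log axis, RE libraries drawn above DMSO libraries; each point is a library. Mast cell and basophil genes sum to 25266 to 29200.0 CPM under RE and 16119 to 21596 CPM under DMSO, and primary granule and monocyte sums are lower under RE.

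Many genes that answer MAPK signalling were higher under RE. Of 25 feedback and immediate early genes 12 rose and 2 fell, against a background of 12.2% and 16.8%. In 19 every RE library was higher than any DMSO library, as in 23.0% of all tested genes, and the median log2 change was 0.49. Jun, a subunit of AP-1, stood at 116, 129 and 116 CPM under RE, against 63.2, 64.8 and 84.5 CPM under DMSO (log2 change 0.77 ± 0.12, adjusted p = 0.00209). Dusp5, a nuclear phosphatase of ERK, had 66.7, 65.8 and 68.7 CPM under RE, against 40.9, 49.8 and 44 CPM under DMSO (log2 change 0.58 ± 0.091, adjusted p = 0.00244). The RE libraries of each lay above all DMSO libraries. Dusp4, a further MAPK phosphatase, averaged 51.8 ± 9.69 CPM under RE and 21.4 ± 4.82 CPM under DMSO (SD, n = 3 each; log2 change 1.27 ± 0.30, adjusted p = 0.014), with adjusted p = 0.0527 to 0.0599 without each of RE replicate 2 and DMSO replicates 1 and 3 in turn. Dusp6, the cytoplasmic ERK phosphatase, averaged 174 ± 16.6 CPM under RE and 114 ± 15.4 CPM under DMSO (log2 change 0.61 ± 0.14, adjusted p = 0.0126), with adjusted p = 0.053 without RE replicate 2 and adjusted p = 0.0545 without DMSO replicate 1. The rises numbered 5 without DMSO replicate 1 and 7 without RE replicates 2 and 3 in turn. The 2 falls were of Dusp2 (log2 change -0.36) and Myc, and numbered 0 without DMSO replicate 1 and 1 without RE replicate 2 and DMSO replicate 3 in turn.

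Receptors and ligands of blood cytokines moved both ways. Of 27 tested receptors 8 fell and 4 rose, against 16.8% and 12.2% of all tested genes. Il6st, the shared signalling chain gp130, stood at 61.7, 56.3 and 57.2 CPM under RE, against 117, 93.8 and 120.4 CPM under DMSO (log2 change -0.92 ± 0.087, adjusted p = 0.000499). Ifngr1, of the interferon gamma receptor, stood at 44.6, 46.5 and 39.9 CPM under RE, against 71.1, 62.3 and 70.0 CPM under DMSO (log2 change -0.63 ± 0.11, adjusted p = 0.00433). Csf2rb, the common beta chain for IL-3, IL-5 and GM-CSF, averaged 3543 ± 333 CPM under RE and 2206 ± 296 CPM under DMSO (SD, n = 3 each; log2 change 0.68 ± 0.18, adjusted p = 0.021). Csf2rb had adjusted p = 0.0507 to 0.0823 without each of RE replicates 2 and 3 and DMSO replicates 1 and 3 in turn. Its near copy Csf2rb2 may share fragments with it. Tgfbr2 rose (log2 change 0.40 ± 0.076), as did Tgfbr1 (0.68 ± 0.21; adjusted p = 0.0779 to 0.136 without each of RE replicates 2 and 3 and DMSO replicates 1 and 2 in turn). Receptor rises numbered 1 without RE replicates 2 and 3 and DMSO replicate 1 in turn and 2 without DMSO replicate 3, and falls 4 without RE replicates 2 and 3 and DMSO replicate 3 in turn and 5 without DMSO replicate 1. Of 24 tested cytokines and chemokines 4 rose and 1 fell, against 12.2% and 16.8% of all tested genes. The replicate block gave 7 rises and 1 fall, against 13.6% and 17.5%. Csf1, the macrophage growth factor, stood at 73.5, 74.1 and 71.4 CPM under RE, against 36.4, 39.1 and 37.5 CPM under DMSO (log2 change 0.95 ± 0.26, adjusted p = 0.0259). Its libraries were tightly grouped, and the call was lost with any 1 library left out (adjusted p = 0.0588 to 0.087 without each of RE replicates 1, 2 and 3 and DMSO replicates 1, 2 and 3 in turn). Lif, a cytokine that signals through gp130, averaged 29.3 ± 6.35 CPM under RE and 12.8 ± 4.13 CPM under DMSO (log2 change 1.19 ± 0.35, adjusted p = 0.034). It had adjusted p = 0.0515 to 0.11 without each of RE replicates 1 and 2 and DMSO replicates 1, 2 and 3 in turn. Csf2, which encodes GM-CSF, averaged 0.896 ± 0.346 CPM under RE and 0.388 ± 0.0206 CPM under DMSO (log2 change 1.19 ± 0.38, adjusted p = 0.0427). Csf2 had adjusted p = 0.0737 to 0.152 without each of RE replicates 2 and 3 and DMSO replicates 1, 2 and 3 in turn. Each was called in 1 of the 6 fits that left out a library. The chemokine gene Cxcl16 averaged 10.6 ± 0.736 CPM under RE and 6.39 ± 0.144 CPM under DMSO (log2 change 0.73 ± 0.18, adjusted p = 0.0153; adjusted p = 0.0577 without DMSO replicate 1). Ccl9, a chemokine of myeloid cells, fell at 191 ± 28.8 CPM under RE and 292 ± 13.4 CPM under DMSO (log2 change -0.61 ± 0.094, adjusted p = 0.00222). Cytokine rises numbered 0 without DMSO replicate 1 and 1 without RE replicate 2 and DMSO replicates 2 and 3 in turn.

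Of 25 tested NF-kB and inflammatory genes 6 rose and 2 fell, against 12.2% and 16.8% of all tested genes. The feedback inhibitor gene Tnfaip3, which encodes A20, averaged 107 ± 4.56 CPM under RE and 73.8 ± 10.1 CPM under DMSO (SD, n = 3 each; log2 change 0.54 ± 0.12, adjusted p = 0.012). Nfkbie, an IkB gene, averaged 52.7 ± 1.94 CPM under RE and 39.6 ± 3.52 CPM under DMSO (log2 change 0.41 ± 0.066, adjusted p = 0.00271). Rel, a subunit of NF-kB, averaged 84 ± 1.32 CPM under RE and 66.5 ± 1.12 CPM under DMSO (log2 change 0.34 ± 0.053, adjusted p = 0.0024). Nfkb1 fell (log2 change -0.22 ± 0.045). Rises numbered 3 without DMSO replicate 1, and falls 1 without RE replicates 1, 2 and 3 and DMSO replicates 1 and 3 in turn. Of 28 tested type I interferon response genes 0 changed by edgeR, 0 had an unadjusted p under 0.05, and 0 passed by DESeq2 or limma-voom. With the replicate block 0 changed in the 9 libraries, while in the 6 RE and DMSO libraries alone the block gave 12 rises and 4 falls. Of all 14387 genes tested in that last fit 3144 rose and 3151 fell. The median log2 change of the 28 genes was 0.078 in the 9 libraries without a block. In the BCL2 family the survival gene Bcl2 stood at 30.8, 34.3 and 35.5 CPM under RE, against 48.8, 50.9 and 44 CPM under DMSO (log2 change -0.51 ± 0.11, adjusted p = 0.00832). Its relative Bcl2l2 averaged 57.9 ± 2.46 CPM under RE and 47.1 ± 1.62 CPM under DMSO (log2 change 0.30 ± 0.046, adjusted p = 0.00228), while Mcl1 did not pass (log2 change 0.094 ± 0.057, adjusted p = 0.252). Of 17 tested members 4 rose and 2 fell, against 12.2% and 16.8% of all tested genes. The rises numbered 1 without DMSO replicate 1 and 2 without RE replicates 2 and 3 in turn, and the falls 1 without RE replicates 2 and 3 and DMSO replicates 1 and 3 in turn. Of 26 p53 target genes 3 rose and 5 fell, shares near the 12.2% and 16.8% of all tested genes. Mdm2, the feedback ligase of p53, rose (log2 change 0.26 ± 0.056), and the G2 gene Gtse1 and the repair gene Xpc fell (-0.46 ± 0.072 and -0.37 ± 0.053). Rises numbered 1 without RE replicates 2 and 3 and DMSO replicate 1 in turn, and falls 3 without RE replicate 2 and DMSO replicates 1 and 3 in turn.

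WT cells given RE were read beside AE9a cells to see which changes AE9a cells share with them and whether any differed. In the 9 WT libraries 4 of 15046 tested genes changed (0.0266%), all lower under RE and all among those that fell in AE9a cells. Adgrl4 stood at 1.17, 1.22 and 1.77 CPM in WT RE libraries and 17.1, 12.2 and 19.3 CPM in WT DMSO libraries (log2 change -3.54 ± 0.24, adjusted p = 0.00676). Hoxa6 stood at 0.166, 0.256 and 0.215 CPM in WT RE libraries and 1.83, 1.87 and 1.76 CPM in WT DMSO libraries (-3.07 ± 0.29, adjusted p = 0.0223). Arhgap32 and Tcf4 changed by -1.85 ± 0.14 and -0.88 ± 0.074 on the log2 scale (adjusted p = 0.00748 and 0.0108). The biological coefficient of variation was 0.329 in the WT fit and 0.103 in the AE9a fit, the WT libraries numbered 2 standing apart. With the replicate block 77 genes (0.512%) changed in WT cells, and without the WT libraries numbered 2 the count was 1219 (8.02%).

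Most of the 20 largest falls and rises had the same direction in WT cells, mostly without passing. The 7 tested HOXA genes had a median log2 change of -1.98 in WT cells. There Hoxa9 stood at -2.51 ± 0.42 on the log2 scale (adjusted p = 0.238, or 0.0202 with the block) and Hoxa7 at -2.67 ± 0.39 (adjusted p = 0.238, or 0.0375 with the block). Of the 20 largest falls in AE9a cells 18 were tested in WT cells, 17 of them lower there, 2 called and 6 called with the block. Of the 20 largest rises 11 were tested, 10 of them higher, 0 called and 3 called with the block. Mllt6 changed by 0.86 ± 0.13 in WT cells (adjusted p = 0.238, or 0.0346 with the block). Replication, mitosis and primary granule genes had WT medians of -0.22, -0.12 and -0.48, with 0 genes called in each. Other medians had opposite signs, such as those of erythroid genes (-0.32 in AE9a cells and 0.38 in WT cells) and lysosome genes (0.14 in AE9a cells and -0.063 in WT cells), a difference that was not tested over the list.

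Whether the response differed between genotypes was tested as the interaction over all 18 libraries. Of 15809 tested genes 0 differed by edgeR, with 676 at an unadjusted p under 0.05 and a lowest adjusted p of 0.0617, and 34 differed by DESeq2. With the block 7 differed, and without the WT libraries numbered 2, 201 (1.25%). Of these 201 genes 18 are named elsewhere in this text. Among the 18 are the replication genes Mcm6 and Cdc6 and the mitosis genes Tpx2 and Nuf2. In that order their log2 changes were -0.67, -0.66, -0.61 and -0.59 in AE9a cells. They were -0.24, -0.21, -0.15 and 0.0061 in the WT libraries without those numbered 2 (adjusted p of the difference 0.0454, 0.04025, 0.0465 and 0.0367). Other genes of replication and mitosis, not named elsewhere, were also among the 201 with a lower log2 change in AE9a cells. Examples are Lig1, at -0.50 in AE9a cells and -0.014 in those WT libraries, and Bub1b, at -0.56 and -0.044 (adjusted p of the difference 0.01945 and 0.0215). Mcm2, Pole, Orc6, Plk1 and Aspm are further ones. Anapc15 went the other way, and such genes were not counted. Rhag, with log2 changes of -1.33 in AE9a cells and 1.27 in those WT libraries, differed by -2.56 ± 0.50 (adjusted p = 0.035). Hpgds, at 1.40 in AE9a cells and 0.33 in WT cells, differed by 1.10 ± 0.18 (adjusted p = 0.0207). Gria3, at -1.63 in AE9a cells and -0.45 in WT cells, differed by -1.15 ± 0.19 (adjusted p = 0.0207). The lysosome gene Gla, at 0.47 in AE9a cells and -0.087 in those WT libraries, differed by 0.59 ± 0.063 (adjusted p = 0.00313). Atp6v1h, Hexa, Tpp1 and Npc1, lysosome or proton pump genes not named elsewhere, were also among the 201, with higher log2 changes in AE9a cells. With all 18 libraries these differences did not pass, so whether changes are particular to AE9a cells depends on the WT libraries numbered 2. In the fit of all 18, Cx3cr1 changed by -1.38 ± 0.22 in AE9a cells and -0.086 ± 0.22 in WT cells, a difference of -1.25 ± 0.31 (adjusted p = 0.46). For Hoxa9 the difference was 0.12 ± 0.44 (adjusted p = 1).

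**Figure D5:**
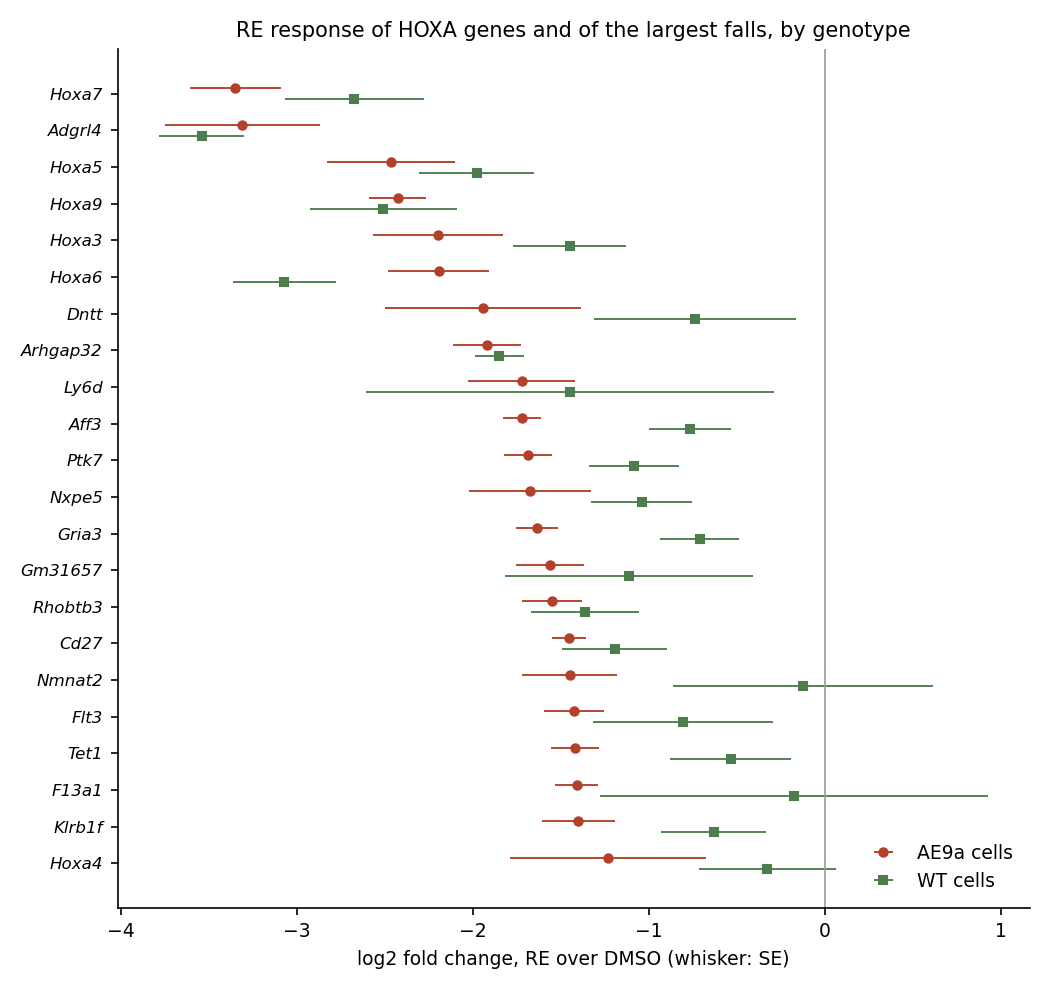
Log2 change of RE over DMSO, with standard errors, in AE9a cells beside WT cells, for 17 of the 20 genes that fell most in AE9a cells and 6 HOXA genes. Adgrl4 lies at -3.31 in AE9a cells and -3.54 in WT cells, and WT errors are wider for most genes.

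RE and C16 were compared directly in AE9a cells, since the study used both. They differed in 10976 of 14704 tested genes (74.6%), 5465 higher (37.2%) and 5511 lower (37.5%) under RE. The 7 tested HOXA genes were all lower under RE than under C16, with a median log2 difference of -3.08. So were all 30 replication, all 28 mitosis and all 30 ribosome biogenesis genes, with medians of -1.25, -1.34 and -0.98. Mast cell genes were higher under RE than under C16 in 22 of 24 cases and lower in 1, with a median of 3.61. Against the DMSO libraries that both compounds share, the medians under RE and under C16 stood at -2.20 and 0.79 for HOXA genes and -0.52 and 0.72 for replication. They stood at -0.51 and 0.78 for mitosis and 0.57 and -3.14 for mast cell genes. Mcm6 averaged 195 CPM under RE, 533 CPM under C16 and 309 CPM under DMSO. RE and C16 differed by -1.45 ± 0.058 on the log2 scale (adjusted p = 1.65e-07). Cebpa averaged 50.7 CPM under RE, 188 CPM under C16 and 87.5 CPM under DMSO (-1.89 ± 0.078, adjusted p = 1.65e-07). Mllt6 averaged 80.3 CPM under RE, 37.1 CPM under C16 and 39.4 CPM under DMSO (1.12 ± 0.11, adjusted p = 1.04e-05). Meis1 and Kmt2a did not differ at the threshold, with log2 differences of -0.08 ± 0.10 and 0.016 ± 0.042 (adjusted p = 0.49 and 0.753). Doses and times of the compounds are not given, so their effects are not matched.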

How the data were processed

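Per the file headers, the authors made the deposited counts, whole fragments of read pairs per gene, with featureCounts 1.6.2 over exons, from primary alignments, without regard to strand, on a GRCm39 RefSeq annotation. The submitters' processing notes name FastQC 0.11.9, fastp 0.23.2, HISAT2 2.1.0 and featureCounts 2.0.3, and which featureCounts version made the tables is not known. Because counting ignored strand and did not assign fragments shared by overlapping genes, overlapping genes and near-identical copies are uncertain. Each count column was matched to its sample by name, and 0 columns were left unmatched.

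Genes were kept by filterByExpr (14704 in AE9a, 15046 in WT, 15809 over all libraries), scaled by TMM and tested with the edgeR 4.0.16 quasi-likelihood F test in R 4.3.3, without a block, on the 9 libraries of a genotype, or on all 18 for the difference between genotypes. Adjustment was by Benjamini-Hochberg with a threshold of 0.05. The standard error is the absolute log2 change divided by the square root of F. Alternatives were DESeq2 1.42.0, voom of limma 3.58.1, RLE and upper-quartile scaling, other filters and sets of libraries, the replicate block, and leaving out each library in turn. Same-number RE and DMSO libraries of AE9a cells deviated together from their group means (correlations of 0.399, 0.292 and 0.372). Those of WT cells did so more strongly (correlations of 0.678, 0.859 and 0.681), and the fits without a block leave this out. The numbers thus pair the RE and DMSO libraries by the data, and the labels do not say what a number marks.

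The comparison, the 39 gene lists (12 of them of cell type markers) and the rule for genes named were chosen with earlier results of these data known. Named genes were the 20 largest rises and 20 largest falls among called genes whose libraries did not overlap and whose higher group averaged at least 5 CPM, up to 5 genes with the largest changes in each list, all HOXA genes and a set of regulators; only part of these are printed, and some genes are not reported here. Further list members named to complete a short count were chosen after their values were seen. A list is described by its counts and its median beside all tested genes, with no test of the list. RefSeq promoter sequences are of GRCm38.p6 and were matched by symbol; gene positions are those of the count table, 1-based on GRCm39.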

Additional observations from a re-analysis of the deposited data

How the results depend on the processing

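For RE against DMSO in AE9a cells the 4261 calls became 3693 to 4964 under other scalings, filters, tools and the 6-library fit, 4584 with the replicate block and 6295 with the block in the 6 libraries, and 5428 without AE9a C16 replicate 3. Leaving out 1 RE or DMSO library gave 2351 to 3852. With all 18 libraries the count was 500, and the spread of the WT libraries enters that fit. The split of higher against lower calls was 1797 and 2464, and 2166 and 2075 under upper-quartile scaling. For the difference in response between genotypes the count of 0 became 34 by DESeq2, 7 with the replicate block, 201 without the WT libraries numbered 2 and 1 in the 12 RE and DMSO libraries, and 0 to 1 with 1 library left out. For RE in WT cells the count of 4 became 75 by DESeq2, 77 with the replicate block, 1219 without the WT libraries numbered 2 and 0 to 1 with 1 library left out. The cause of these shifts was not tested. RE against C16 gave 10101 to 11486 calls in every alternative. Among the AE9a genes named here, 8 calls were lost by DESeq2 (Rbbp5, Mllt1, Ccnt1, Ctr9, Cdkn2a, Add2, Gp6 and Lif) and 5 by limma-voom (Stfa1, Dntt, Mllt1, Epx and Csf2). Where no blocked value is given beside a gene or list, the block of the 9-library fit changed no call of a gene named here and moved the list counts printed by at most 1.5 times. The block in the 6 libraries moved more of them, with rises in 19 of 24 mast cell, 16 of 24 cytokine and 12 of 28 interferon response genes. Of all 14387 genes tested in that fit 3144 rose. Depth limits low genes, since Hoxa3, Hoxa4, Hoxa5, Eya1 and Mecom stood at or near 3 fragments in RE libraries; intervals cover counting error only.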

Other observations

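Lysosome genes rose under RE more often than they fell: 10 of 28 tested rose and 3 fell, against 12.2% and 16.8% of all tested genes, with a median log2 change of 0.14, against -0.0081 over all tested genes. Ctsd, cathepsin D, stood at 1627, 1694 and 1709 CPM under RE, against 1106, 1189 and 1208 CPM under DMSO (log2 change 0.52 ± 0.089, adjusted p = 0.0034). Sqstm1, the autophagy receptor p62, had 512, 545 and 586 CPM under RE, against 346, 411 and 397 CPM under DMSO (log2 change 0.51 ± 0.071, adjusted p = 0.00161). Both were higher in every RE library. Gla, which degrades glycolipids, rose with a log2 change of 0.47 ± 0.044. Rises numbered 9 to 12 with 1 library left out and 5 in the fit of all 18 libraries; falls numbered 0 without RE replicates 2 and 3 and DMSO replicates 1 and 3 in turn.

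Genes of lipid and amino acid supply were mixed. The counts of this paragraph stand beside 12.2% of all tested genes that rose and 16.8% that fell. Of 27 cholesterol and fatty acid synthesis genes 7 rose and 2 fell. The largest change was the fall of the elongase gene Elovl6 (76.4 ± 4 CPM under RE and 99.2 ± 10.4 CPM under DMSO; log2 change -0.38 ± 0.076, adjusted p = 0.0072). Msmo1, a sterol oxidase, rose (log2 change 0.25 ± 0.042). Rises numbered 2 without RE replicate 3 and DMSO replicate 1 in turn and 4 without RE replicate 2 and DMSO replicate 3 in turn. Of 12 cholesterol efflux and LXR target genes 3 rose and 1, Pltp, fell (log2 change -1.10 ± 0.25, adjusted p = 0.0562 without RE replicate 2). Of 28 stress response genes 4 rose and 5 fell. The cystine transporter gene Slc7a11 averaged 49.9 ± 4.85 CPM under RE and 34.7 ± 2.42 CPM under DMSO (log2 change 0.52 ± 0.083, adjusted p = 0.00247). The serine synthesis genes Phgdh and Psph fell (log2 change -0.40 ± 0.058 and -0.33 ± 0.052), as did Asns (-0.33 ± 0.047). The rises numbered 2 without DMSO replicate 1. Of 19 glycolysis genes 1 rose, Pfkp (log2 change 0.35 ± 0.066), and 3 fell. Among the falls was Pdk1, a pyruvate dehydrogenase kinase (36.1 ± 1 CPM under RE and 55.6 ± 1.57 CPM under DMSO, log2 change -0.62 ± 0.051, adjusted p = 0.000396).

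Of 23 tested genes reported for AML1-ETO 4 rose and 4 fell, against 12.2% and 16.8% of all tested genes. The replicate block gave 7 rises and 4 falls, against 13.6% and 17.5%. Jup, plakoglobin, which carries Wnt signals, stood at 41.6, 46.5 and 48.3 CPM under RE, against 24.6, 28.4 and 30.4 CPM under DMSO (log2 change 0.71 ± 0.11, adjusted p = 0.00242), without overlap. The lysosomal membrane gene Laptm5 rose (log2 change 0.34 ± 0.077). Of 24 adhesion genes 5 rose and 4 fell, beside the same shares of 12.2% and 16.8%. Amigo2 averaged 14.4 ± 3.23 CPM under RE and 3.26 ± 0.88 CPM under DMSO (log2 change 2.14 ± 0.22, adjusted p = 0.000663). Pecam1, an adhesion molecule of endothelium and blood cells, averaged 49.8 ± 6.45 CPM under RE and 79.6 ± 7.4 CPM under DMSO (log2 change -0.68 ± 0.094, adjusted p = 0.00161). The rises numbered 3 without RE replicates 1, 2 and 3 and DMSO replicates 1 and 3 in turn. B lineage genes summed to 57 to 96.8 CPM under RE and 84.7 to 117 CPM under DMSO. Of 10 tested 2, Dntt and Cd79b, fell, against 16.8% of all tested genes, or 4 with the replicate block, against 17.5%. Falls numbered 0 without RE replicates 2 and 3 and DMSO replicate 1 in turn and 1 without DMSO replicate 3. Stroma and endothelium genes summed to 25.6 to 28.9 CPM under RE and 29.6 to 31.7 CPM under DMSO. Of 6 tested only Cdh5 fell (log2 change -2.38 ± 0.64, adjusted p = 0.0231; adjusted p = 0.0622 to 0.0984 without each of RE replicate 2 and DMSO replicates 1 and 3 in turn).

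The tested genes were split into 4 equal groups by mean level. In the lowest 6.12% fell and 6.09% rose, and in the highest 23.3% fell and 19.5% rose, so calls were more frequent among genes with more fragments.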
